A study of Rattus norvegicus with 36 samples.

Results

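The tumour necrosis factor (TNF) receptors that can start cell death, and the TNF receptor associated factors (TRAFs) that carry their signals, were followed in a rat cardiac myoblast line that had received miR-125b or 1 of its 3′ isomiRs. The set was taken by gene name and holds 10 of the 24275 genes listed in the count tables. It has 3 death receptors (*Tnfrsf1a*, *Fas* and *Tnfrsf10b*), 2 receptors without a death domain (*Tnfrsf1b* and *Tnfrsf12a*) and 5 adaptors (*Traf1*, *Traf2*, *Traf3*, *Traf5* and *Traf6*). Each name matched 1 gene. The cells were H9C2, an established line from embryonic rat heart. They were transfected with 25 nmol/L of a mimic control (MC) or of a mimic of Trim AGU, Trim AG, Trim A, Plus A or miR-125b itself, and a day later were moved to hypoxia or normoxia for another day. Poly-A RNA was then sequenced, and counts were used for 11 of the 12 groups, 3 libraries each: Hypoxia MC, Hypoxia miR-125b, Hypoxia Plus A, Hypoxia Trim A, Hypoxia Trim AG and Hypoxia Trim AGU, and the same 5 miRNA mimics in normoxia. The hypoxic cells were kept in serum-free, low-glucose medium and the normoxic cells in fresh medium, so oxygen and medium cannot be told apart. All groups come from a single immortalised line given synthetic RNA, and nothing in the sources used here says that the 3 libraries of a group came from separate cultures, so the p-values measure the spread between these libraries, which may be technical.

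TNF receptors have no enzyme activity of their own and signal through the proteins they gather inside the cell. The death receptors carry a death domain that recruits TRADD or FADD and, through them, caspase-8. The receptors without that domain bind TRAFs directly. Most TRAFs act as or with ubiquitin ligases, and the chains they help build activate kinases that lead to NF-kB and JNK. In heart muscle, TNF signals are known both for injury and for protection, with TNFR1 (*Tnfrsf1a*) mostly assigned to the former and TNFR2 (*Tnfrsf1b*) to the latter. miR-125b is a muscle and heart microRNA known to lower pro-apoptotic messages, and *Tnfrsf1b* and *Traf6* were among the predicted targets that the study picked for assay. The study reported lower mRNA of both under the miR-125b mimic, while neither was among the proteins it found decreased. Its luciferase reporter fell with the 3′ untranslated region of *Tnfrsf1b* and was not affected with that of *Traf6*. As the study chose both of them, a fall in either is not independent evidence of its direction.

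By their names the mimics differ at the 3′ end only, and derived sequences are given here because each isomiR is compared with miR-125b below. The sequences of the mimics as supplied were not used. The mature rat miR-125b-5p of RefSeq, at chr11:29732588-29732609 on the plus strand of GRCr8, was taken as the canonical form, and the isomiRs were derived from it by adding or removing the bases in their names. The study names a further rat locus of miR-125b, on another chromosome, whose coordinates are not given here. Capitals mark the seed, bases 2 to 8 from the 5′ end, which is the same in all 5.
miR-125b: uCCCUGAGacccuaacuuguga
Plus A: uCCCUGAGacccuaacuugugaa
Trim A: uCCCUGAGacccuaacuugug
Trim AG: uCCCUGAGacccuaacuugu
Trim AGU: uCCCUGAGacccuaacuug
The 5 mimics are 22, 23, 21, 20 and 19 bases long, in this order.

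Totals per library ran from 28361216 to 42672584 counts (median 29923694), and the Hypoxia Trim AG libraries were the deepest, with 39940087 or more. Levels are given as CPM, the count of a gene scaled to the total of its library. The myoblast markers *Vim* (2468 to 4624 CPM), *Cdh15* (190.4 to 599 CPM) and *Myod1* (17.1 to 146 CPM) were present in every library, while *Des* stayed at 0.855 to 4.98 CPM and *Myf5* at 0 to 0.0703 CPM. Among the rest of that list, *Myog*, *Cav3* and *Tnnt2* had medians of 45.0, 41.7 and 29.8 CPM, and *Actc1* and *Actn2* of 0.486 and 0.365 CPM. All 4 epithelial markers were below 1 CPM throughout. Of the 7 leukocyte markers 4 were below 1 CPM in every library, *Ptprc* (at most 0.188 CPM) among them. The others reached 2.43 CPM (*Cd68*), 1.92 CPM (*Csf1r*) and 1.55 CPM (*Itgam*). Some libraries stood apart. Several deviated from the mean of all libraries along with gene length. The r across genes between this deviation and log2 length was -0.40 in Hypoxia Trim AGU replicate 2 (long genes low), -0.31 in its replicate 3, -0.29 and -0.26 in Hypoxia Trim A replicates 2 and 3, -0.26 in Hypoxia Trim AG replicate 2 and 0.29 in Normoxia Trim AGU replicate 2, against -0.17 to 0.22 in the other 27. In normoxia, *Cav1*, named after its values were seen, which was 93.9 to 100.2 CPM in Hypoxia Plus A and 241 to 246 CPM in Hypoxia miR-125b, had 269, 98.0 and 98.3 CPM in Plus A and 102, 282 and 263 CPM in miR-125b, so replicate 1 of each of these groups had the level of the other. An exchange of the labels of these 2 libraries is possible and was not tested, and it would change each value that uses Normoxia Plus A or Normoxia miR-125b. Every call of a member was refitted without each of its libraries in turn, and the calls lost are named beside the results.

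Per length of gene, the receptors held both the top and the bottom of the set. *Tnfrsf12a* (Fn14, the receptor of TWEAK) had a mean of 254 FPKM over the 33 libraries, *Tnfrsf1a* 39.9 FPKM and *Fas* 16.5 FPKM, whereas *Tnfrsf1b* had 0.249 FPKM and *Tnfrsf10b*, a TRAIL receptor, 0.0135 FPKM. FPKM is the deposited value that scales a count to both the gene's length and the library. The adaptors lay between *Tnfrsf1a* and *Tnfrsf1b*, with means of 24.0 FPKM for *Traf5*, 17.7 for *Traf2*, 9.31 for *Traf3*, 2.60 for *Traf6* and 1.34 for *Traf1*. *Tnfrsf10b* had no count in 21 libraries and at most 4 counts in any, 29 in all. A count of 0 allows up to 3 counts, which is 0.0703 to 0.106 CPM in those libraries, so differences in this gene were not detectable at this depth and it entered no test. *Tnfrsf1b* had 7 to 54 counts per library and passed the filter on low counts in all 22 comparisons, as did the other 8 members.

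The deposited tables place the members on the following genes, all protein coding, with coordinates as given there and a genome build that is not given in the sources used here. The death receptor genes are *Tnfrsf1a* (ENSRNOG00000031312, chr4:157864969-157877633, plus strand), *Fas* (ENSRNOG00000019142, chr1:252589785-252624790, plus strand) and *Tnfrsf10b* (ENSRNOG00000038483, chr15:51434096-51464215, plus strand). *Tnfrsf1b* (ENSRNOG00000016575, chr5:163136390-163167299, minus strand) and *Tnfrsf12a* (ENSRNOG00000003546, chr10:12995904-12997930, minus strand) are the receptors without a death domain. The adaptors are *Traf1* (ENSRNOG00000048914, chr3:14003340-14019204, minus strand), *Traf2* (ENSRNOG00000006238, chr3:2746075-2770620, minus strand), *Traf3* (ENSRNOG00000008145, chr6:135610743-135718564, plus strand), *Traf5* (ENSRNOG00000047957, chr13:110758761-110784209, minus strand) and *Traf6* (ENSRNOG00000004639, chr3:91252829-91271607, plus strand). *Traf1*, *Traf2* and *Traf6* share a chromosome but lie far apart on it. The libraries were not stranded, so reads of an overlapping antisense gene could not be told apart from those of a member.

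Across the 11 groups, Hypoxia MC, the only group among them without a miRNA mimic, held an extreme for 4 of the 9 members tested. *Tnfrsf1a*, *Tnfrsf1b* and *Traf1* were highest there and *Traf2* lowest. The share of all genes with an extreme in that group was not counted, so this is a description only. Hypoxia MC had 133 ± 1.91 CPM of *Tnfrsf1a* (SD, n = 3), and the lowest group, Hypoxia Trim A, had 71.4 ± 10.6 CPM. For *Fas* all 6 hypoxia groups came before the 5 normoxia groups, from 64.2 ± 2.09 CPM in Hypoxia Plus A down to 23.2 ± 0.350 CPM in Normoxia Trim AGU. *Traf6* ran from 9.47 ± 0.836 CPM in Normoxia Trim AGU to 4.69 ± 1.20 CPM in Hypoxia Trim AGU, so the same mimic gave both ends. Between highest and lowest group the fold was 1.49 for *Traf5*, 1.66 for *Traf3*, 1.80 for *Traf2*, 1.87 for *Tnfrsf1a* and 1.98 for *Tnfrsf12a*. It was 2.02 for *Traf6*, 2.69 for *Traf1*, 2.76 for *Fas* and 7.04 for *Tnfrsf1b*. Neighbours in these orders mostly overlapped. The groups were first sorted by their own means, and the share over all genes was not counted, so steps without overlap are a description only. Of the 10 neighbouring pairs of groups, the libraries overlapped in 10 for *Traf1*, in 9 for *Tnfrsf1b*, *Tnfrsf12a* and *Traf3*, in 8 for *Tnfrsf1a*, *Traf2* and *Traf6*, in 7 for *Traf5* and in 6 for *Fas*. The steps without overlap for *Fas* were Hypoxia Trim A above Hypoxia miR-125b and, in normoxia, miR-125b above Trim A, Trim A above Trim AG and Trim AG above Trim AGU. For *Tnfrsf1a* they were Hypoxia MC above Normoxia Trim AGU and Normoxia Trim A above Normoxia Trim AG, for *Tnfrsf1b* Hypoxia Plus A above Hypoxia Trim AGU, and for *Tnfrsf12a* Hypoxia miR-125b above Hypoxia MC. *Traf2* had Hypoxia miR-125b above Normoxia Trim AG, which set the hypoxic mimics above normoxia, and Normoxia miR-125b above Hypoxia MC. *Traf3* had Hypoxia Plus A above Normoxia Plus A, and *Traf6* Normoxia miR-125b above Normoxia Plus A and Hypoxia Plus A above Hypoxia Trim AG. *Traf5* had Normoxia Trim AG above Hypoxia Trim AG, the latter above Normoxia miR-125b, and Normoxia Trim A above Normoxia Trim AGU. Not every such step passed edgeR's quasi-likelihood test. In normoxia, *Fas* between Trim AG and Trim AGU had an adjusted p of 0.634, and *Traf6* between miR-125b and Plus A 0.997. For *Traf2*, the lowest Normoxia miR-125b library had 28.05 CPM and the highest Hypoxia MC library 28.04 CPM. The plot of levels by library shows these patterns.

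**Figure D1:**
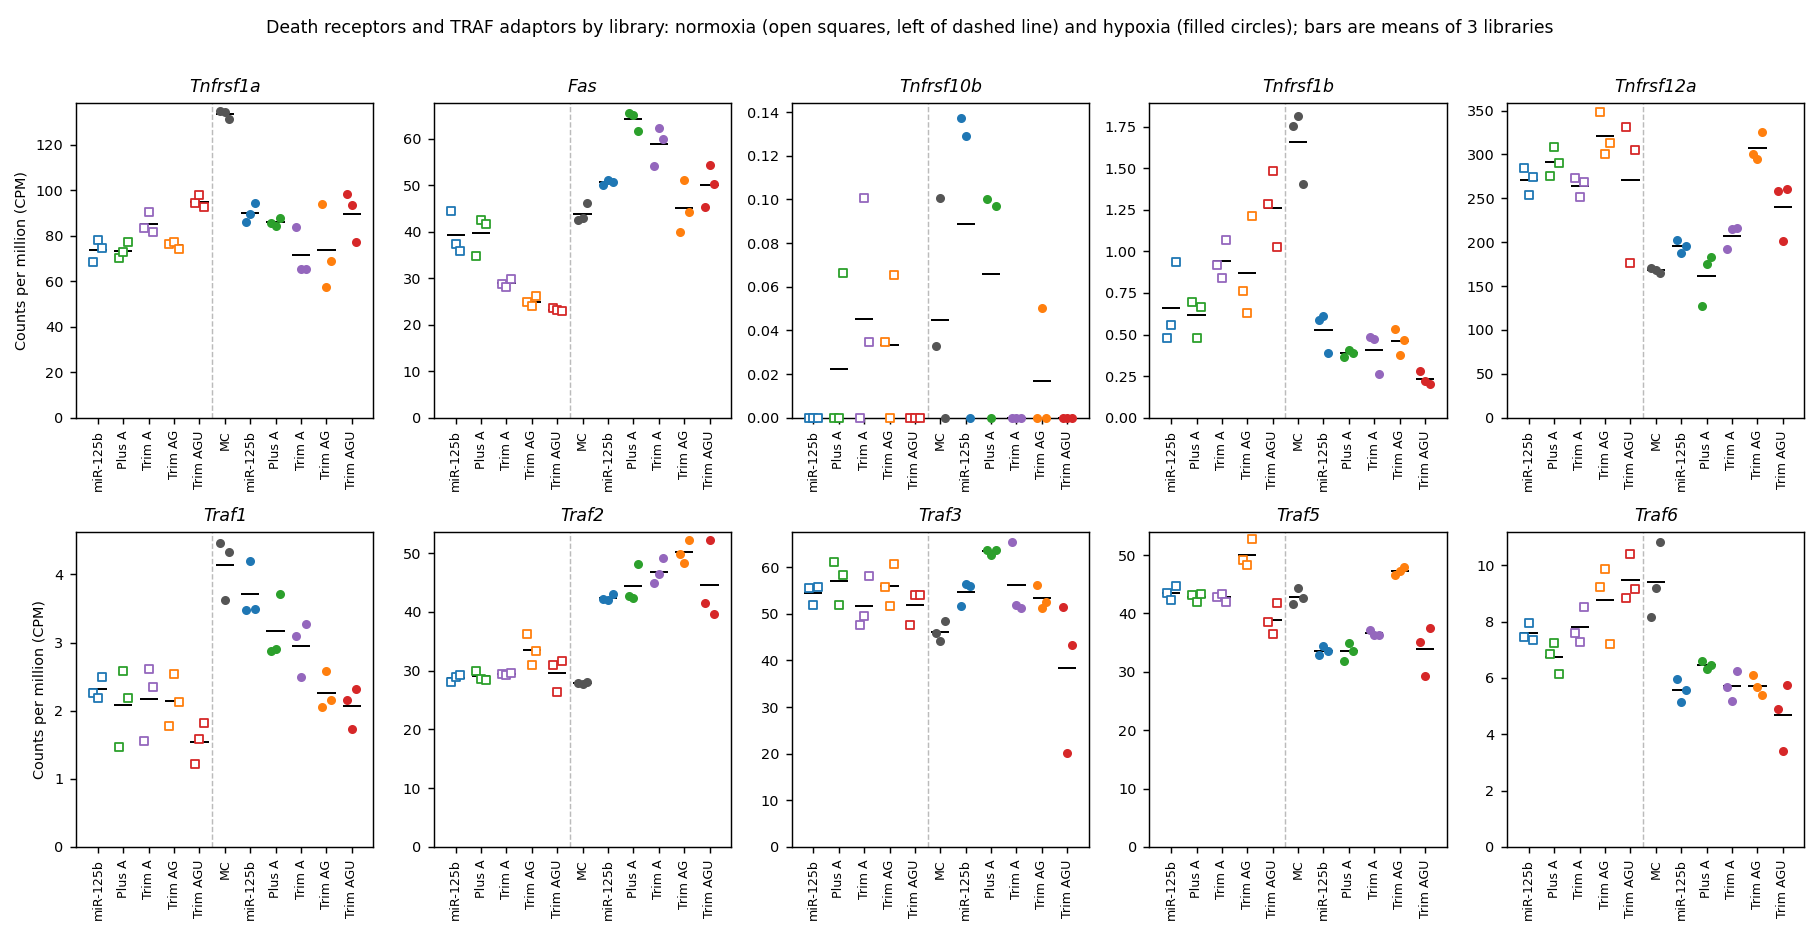
Level of each of the 10 genes in each of the 33 libraries, in CPM, by group; points are libraries and short lines are group means, and each panel has its own scale. *Tnfrsf1a* sits at 131 to 135 CPM in Hypoxia MC and below 100 CPM in every other library, and *Fas* is below the Hypoxia MC libraries in each normoxia library of Trim A, Trim AG and Trim AGU.

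The question of the first comparison was what each mimic did to these genes in hypoxia, against MC. *Tnfrsf1b* fell under all 5 mimics, *Traf2* rose under all 5, and *Traf6* fell under 4. *Tnfrsf1a* fell under Plus A, Trim A and Trim AG, *Traf1* fell under Trim AG and Trim AGU, and *Tnfrsf12a* rose under those same shorter mimics, while *Fas*, *Traf3* and *Traf5* passed the fold threshold under none. A gene was called, and is said to rise or fall, at an adjusted p below 0.05 in edgeR's quasi-likelihood test and a change of at least 1.5-fold. Of 45 tests (9 members, 5 mimics) 7 were called higher and 14 lower. Per mimic, 1 or 2 of the 9 rose and 2 to 4 fell. Among all genes tested, 9.43% rose and 12.5% fell under miR-125b, 10.5% and 14.4% under Plus A, 12.4% and 15.7% under Trim A, 17% and 20.2% under Trim AG, and 11.4% and 12.4% under Trim AGU. The median log2 fold change of the members was -0.12, -0.33, -0.18, 0.11 and -0.20 in this order, beside -0.016 to 0.0033 over all genes. The 5 comparisons share the 3 MC libraries, so a deviation of these would appear in all of them. In bulk RNA, fewer cells of a kind and less RNA per cell cannot be told apart.

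The receptors without a death domain moved in opposite directions. TNFR2, encoded by *Tnfrsf1b*, had 1.75, 1.81 and 1.41 CPM in MC. It had 0.584, 0.613 and 0.387 CPM under miR-125b, 0.368, 0.405 and 0.388 under Plus A, 0.483, 0.475 and 0.261 under Trim A, 0.533, 0.376 and 0.469 under Trim AG and 0.281, 0.220 and 0.206 under Trim AGU. Every mimic library was below every MC library. The log2 fold change was -1.61 ± 0.27 (SE), adjusted p = 0.000343, for miR-125b, and -2.66 ± 0.32 (SE), adjusted p = 0.00241, for Trim AGU, with -2.07, -1.98 and -1.78 for Plus A, Trim A and Trim AG (adjusted p = 9.54e-05, 0.000976 and 0.000406). All 5 calls held without any 1 library. *Tnfrsf12a*, whose ligand TWEAK acts on growth and muscle remodelling, had 171, 168 and 165 CPM in MC. Under Trim AG it had 300.0, 295 and 325 CPM (log2 fold change 0.93 ± 0.074 (SE), adjusted p = 1.39e-05) and under Trim AGU 258, 201 and 260.4 CPM (0.65 ± 0.10 (SE), adjusted p = 0.00554). Neither group overlapped MC. *Tnfrsf12a* is the shortest member, at 963 bases. The r between deviation and gene length was -0.40 to -0.031 in the libraries of these groups and 0.054 to 0.11 in MC. The part of this deviation in the rise was not tested. The values under miR-125b (0.25, adjusted p = 0.000103) and Trim A (0.35, 0.00484) passed the p alone. Under Plus A it was -0.033 with a 95% interval of -0.27 to 0.21, the libraries overlapped those of MC, and without Plus A replicate 1 the sign turned (0.11, adjusted p = 0.0310, under 1.5-fold).

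Of the death receptors, *Tnfrsf1a* was lower in every mimic library than in MC. It had 135, 134 and 131 CPM in MC, 86.0, 89.6 and 94.3 under miR-125b, 85.6, 84.2 and 87.6 under Plus A and 83.7, 65.3 and 65.3 under Trim A. Under Trim AG the libraries spread widely, at 94.0, 57.5 and 69.0 CPM, and under Trim AGU they had 98.3, 93.3 and 77.2. Trim A gave the lowest log2 fold change (-0.86 ± 0.099 (SE), adjusted p = 0.000235), followed by Trim AG (-0.80 ± 0.15 (SE), adjusted p = 0.00176) and Plus A (-0.61 ± 0.043 (SE), adjusted p = 1.52e-06). The lowest libraries, Trim AG replicate 2 and Trim A replicates 2 and 3, are among those that deviated with gene length (r of -0.26, -0.29 and -0.26). The part of this deviation in the order was not tested. For miR-125b it was -0.53 (adjusted p = 6.44e-07) and for Trim AGU -0.43 (0.0478), both under 1.5-fold. *Fas*, the receptor of Fas ligand and a target of p53, was higher than in MC under each mimic by less than 1.5-fold. From 42.4, 42.9 and 46.2 CPM in MC it was 65.7, 65.1 and 61.8 CPM under Plus A, a log2 fold change of 0.57 ± 0.054 (SE), adjusted p = 1.15e-05. Its values under Trim A and miR-125b were 0.47 and 0.25 (adjusted p = 0.00150 and 0.000740). Those under Trim AG (0.11, 95% interval -0.13 to 0.34) and Trim AGU (0.34, 0.018 to 0.66) did not pass the adjusted p (0.388 and 0.0999). Leaving out MC replicate 3 brought *Fas* under Plus A to 0.60, adjusted p = 6.04e-05, past the fold threshold.

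Among the adaptors, *Traf2*, which joins TNF receptors to cIAP ubiquitin ligases, rose under all 5 mimics. Its libraries had 27.9, 27.7 and 28.0 CPM in MC, 42.1, 42.0 and 43.1 under miR-125b, 42.7, 42.4 and 48.1 under Plus A, 44.9, 46.5 and 49.1 under Trim A, 49.9, 48.3 and 52.3 under Trim AG and 41.6, 52.2 and 39.7 under Trim AGU. Every mimic library was above every MC library. The log2 fold changes were 0.64, 0.69, 0.79, 0.91 and 0.83, with SEs of 0.046 to 0.17 and adjusted p of 4.97e-07 to 0.0133. The Trim AGU call was lost when any MC library was left out (0.83, 0.82 and 0.82 without replicates 1, 2 and 3, adjusted p = 0.0628, 0.0641 and 0.0665).

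*Traf6*, the ubiquitin ligase that also serves Toll-like and interleukin receptors, had 8.17, 9.20 and 10.8 CPM in MC. It had 5.95, 5.16 and 5.59 CPM under miR-125b, 6.62, 6.31 and 6.47 under Plus A, 5.67, 5.19 and 6.23 under Trim A, 6.10, 5.68 and 5.39 under Trim AG and 4.91, 3.39 and 5.76 under Trim AGU. All mimic libraries were below all MC libraries. The log2 fold change was -0.72 ± 0.13 (SE), adjusted p = 0.000713, for miR-125b, -0.67 ± 0.15 (SE), adjusted p = 0.00561, for Trim A, -0.65 ± 0.14 (SE), adjusted p = 0.00370, for Trim AG, and -0.87 ± 0.21 (SE), adjusted p = 0.0236, for Trim AGU. Plus A was at -0.52 ± 0.13 (SE), adjusted p = 0.00623, under 1.5-fold. MC replicate 3 was the highest library, and without it Trim A (-0.57, adjusted p = 0.0254) and Trim AG (-0.54, adjusted p = 0.0187) dropped under 1.5-fold. Without MC replicate 1 Plus A passed it (-0.61, adjusted p = 0.00496). The Trim AGU call was lost without any of the MC libraries (-0.96, adjusted p = 0.0639, without replicate 1, -0.89, adjusted p = 0.0849, without replicate 2, and -0.77, adjusted p = 0.106, without replicate 3), and was kept without Trim AGU replicate 2 (-0.73, adjusted p = 0.00902).

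*Traf1*, a TRAF without a RING domain that NF-kB itself induces, had 4.46, 3.63 and 4.32 CPM in MC. Under Trim AG it had 2.06, 2.58 and 2.16 CPM and under Trim AGU 2.16, 1.73 and 2.32 CPM, log2 fold changes of -0.80 ± 0.18 (SE), adjusted p = 0.00434, and -0.86 ± 0.20 (SE), adjusted p = 0.0198. The latter was not called without MC replicate 1, 2 or 3 (adjusted p = 0.0955, 0.0621 and 0.0931). miR-125b, Plus A and Trim A gave -0.12, -0.36 and -0.44, with 95% intervals of -0.46 to 0.23, -0.75 to 0.027 and -0.83 to -0.045. *Traf3*, which holds the non-canonical NF-kB pathway in check, was at 0.28, 0.48, 0.33 and 0.27 for miR-125b, Plus A, Trim A and Trim AG, each past the adjusted p and under 1.5-fold. In Trim AGU its libraries had 51.4, 20.1 and 43.3 CPM, and the low library, replicate 2, is the one with the r furthest below 0 between deviation and gene length, while replicate 3 had -0.31. The log2 fold change there was -0.15 with all 3 libraries and 0.12 without replicate 2, neither past the test. *Traf5*, a close relative of *Traf2*, was at -0.31 ± 0.049 (SE) under miR-125b, -0.33 ± 0.057 under Plus A, -0.18 ± 0.063 under Trim A and 0.20 ± 0.067 under Trim AG. Each passed the adjusted p (0.000202, 0.000631, 0.0390 and 0.0280) and was under 1.5-fold. Under Trim AGU it was -0.20 ± 0.10, adjusted p = 0.183, so Trim AG alone was above MC.

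Without Hypoxia Trim AGU replicate 2 the other calls of Trim AGU against MC stood. *Tnfrsf1b* was then at -2.67, adjusted p = 0.000527, and *Tnfrsf12a* at 0.71, adjusted p = 0.000111. *Traf1* was at -0.80, adjusted p = 0.0107, and *Traf2* at 0.62, adjusted p = 0.000233.

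**Figure D2:**
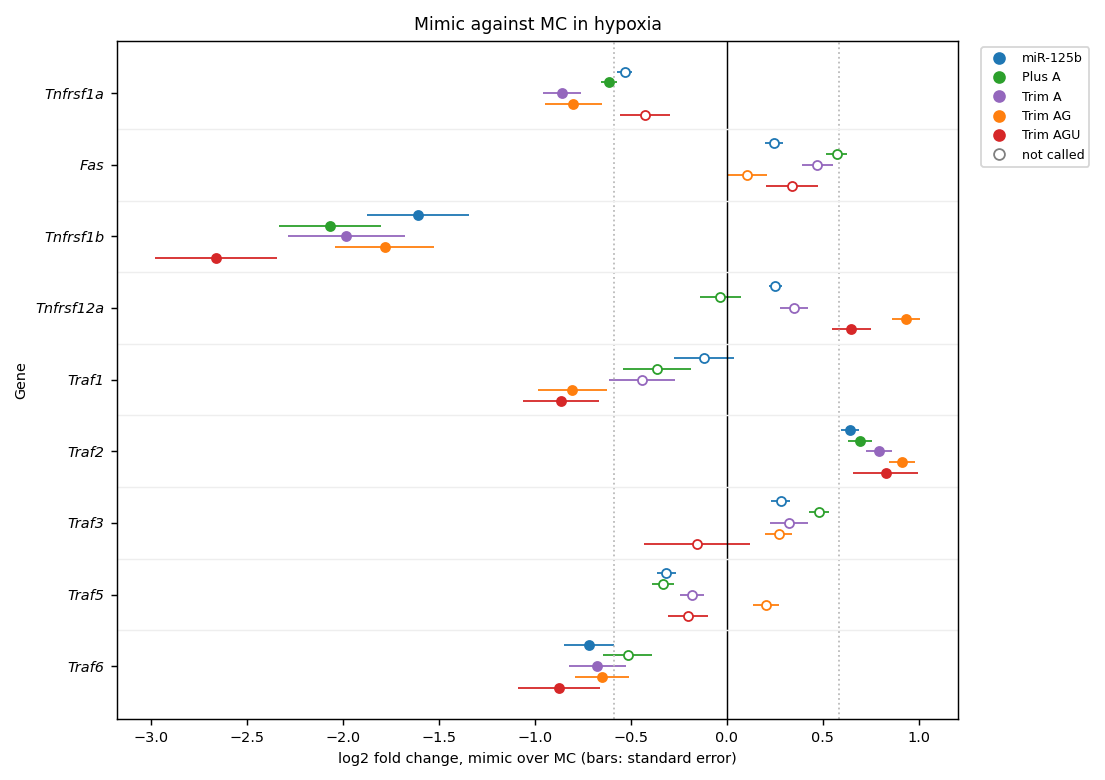
Log2 fold change of each tested gene for each mimic against MC in hypoxia, with bars of 1 SE from edgeR; filled points are called at an adjusted p below 0.05 and 1.5-fold, and dotted lines mark 1.5-fold. *Tnfrsf1b* lies between -2.66 and -1.61 and *Traf2* between 0.64 and 0.91, while *Tnfrsf12a* is called for Trim AG and Trim AGU only.

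Of the summed cell markers, those of endothelium alone did not overlap between MC and the mimics. The summed level of the 10 myoblast markers was 4871 to 5029.9 CPM in Hypoxia MC and 3011 to 4979 CPM in the hypoxic mimic libraries. Most of this sum was *Vim*, alone at 2468 to 4624 CPM across all libraries, so it says little of the other markers. Of the 5 endothelial markers 2 were listed, and their sum was 4.43 to 4.60 CPM in MC against 0.690 to 2.68 CPM under the mimics. Nearly all of it was *Tek*, since *Vwf* did not exceed 0.331 CPM in any library. The 7 leukocyte markers summed to 2.88 to 3.83 CPM in MC and 1.93 to 3.58 CPM under the mimics, and the 4 epithelial markers to 0.0336 to 0.132 and 0 to 0.344 CPM. Their part in the results for these receptors and adaptors was not tested.

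Whether the 3′ end mattered was asked by comparing each isomiR with miR-125b in the same oxygen. In hypoxia only Trim AG differed past the thresholds, with *Tnfrsf12a* higher and *Traf1* lower, and 0 members were called for Plus A, Trim A or Trim AGU. The 2 of 9 members called for Trim AG stand beside 19.3% of all genes tested, so their share was near that of all genes. For the other isomiRs 2.03% (Plus A), 0.873% (Trim A) and 3.75% (Trim AGU) of all genes were called. At an unadjusted p below 0.05 there were 3 members for Plus A, 2 for Trim A and 3 for Trim AGU, and DESeq2 called 0, 0 and 1 (*Traf1* for Trim AGU). These comparisons share the miR-125b libraries. The members' median log2 fold change was -0.022, 0.039, -0.020 and 0.083 for Plus A and the isomiRs trimmed by 1, 2 and 3 bases, beside -0.019 to 0.00014 over all genes.

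*Tnfrsf12a* had 203, 188 and 196 CPM in Hypoxia miR-125b against 300.0, 295 and 325 in Hypoxia Trim AG, a log2 difference of 0.67 ± 0.071 (SE), adjusted p = 0.000250. The libraries did not overlap, and the call held under each alternative. Plus A, with 1 base more, gave -0.29 (95% interval -0.55 to -0.031), Trim A 0.092 (-0.079 to 0.26) and Trim AGU 0.38 (0.14 to 0.62). None of these passed the adjusted p in edgeR's test (0.120, 0.469 and 0.0885). Hypoxia Plus A had 127 CPM in replicate 1 beside 176 and 183 CPM in the others. *Traf1* had 3.47, 4.19 and 3.49 CPM under miR-125b and 2.06, 2.58 and 2.16 CPM under Trim AG (-0.70 ± 0.18 (SE), adjusted p = 0.0138). That call was lost without Hypoxia miR-125b replicate 2 (-0.60, adjusted p = 0.0638) and without Hypoxia Trim AG replicate 3 (-0.66, adjusted p = 0.0550). *Traf1* under Trim AGU was at -0.76 (adjusted p = 0.0866) and was called once Trim AGU replicate 2 was left out (-0.70, adjusted p = 0.0373). *Traf5* was 0.51 ± 0.066 (SE), adjusted p = 0.000625, and *Traf2* 0.26 ± 0.065 (SE), adjusted p = 0.0136, for Trim AG, both under 1.5-fold. Plus A differed from miR-125b in *Fas* (0.32 ± 0.045 (SE), adjusted p = 0.00258) and *Traf3* (0.19 ± 0.048 (SE), adjusted p = 0.0263), again under 1.5-fold.

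*Tnfrsf1b* and *Traf6*, which fell against MC, were called for no isomiR against miR-125b (adjusted p of 0.173 or more for *Tnfrsf1b* and 0.288 or more for *Traf6*). For *Tnfrsf1b* the 95% intervals of the log2 difference were -1.27 to 0.35 (Plus A), -1.27 to 0.51 (Trim A), -0.94 to 0.58 for Trim AG and -2.02 to -0.11 for Trim AGU, with 7 to 54 counts of the gene per library. Those of *Traf6* were narrower, at -0.066 to 0.46, -0.27 to 0.34, -0.23 to 0.35 and -0.66 to 0.32. For *Tnfrsf1a* they were -0.19 to 0.019, -0.56 to -0.098, -0.62 to 0.067 and -0.22 to 0.40.

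In normoxia *Fas* was the member that differed. Against miR-125b it fell under Trim AG and Trim AGU, and no other member was called. Its libraries had 44.4, 37.4 and 35.8 CPM under miR-125b, 34.8, 42.6 and 41.7 under Plus A, 28.9, 28.1 and 29.9 under Trim A, 24.8, 24.0 and 26.1 under Trim AG and 23.6, 23.2 and 22.9 under Trim AGU. Each Trim library was below each miR-125b library. The log2 difference was -0.43 ± 0.086 (SE), adjusted p = 0.0440, for Trim A, -0.70 ± 0.089 (SE), adjusted p = 0.000340, for Trim AG, and -0.76 ± 0.099 (SE), adjusted p = 0.000773, for Trim AGU, of which the first was under 1.5-fold. The highest miR-125b library was replicate 1, whose *Cav1* level was that of Plus A. Without it the values were -0.33, adjusted p = 0.0302, -0.59, adjusted p = 0.000220, and -0.66, adjusted p = 0.00250, and the calls stood. The 1 of 9 members called for Trim AG and for Trim AGU stands beside 13.9% and 11.4% of all genes.

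For Trim A 0 members and 0.414% of all genes were called in normoxia, and for Plus A 0 members and 0% of all genes. At an unadjusted p below 0.05 there were 2 members for Trim A and 0 for Plus A, with 404 of all genes for Plus A, and DESeq2 called 0 members for either. With replicate 1 left out of both Normoxia Plus A and Normoxia miR-125b, *Fas* was 0.23, adjusted p = 0.0754, and *Tnfrsf12a* 0.21, adjusted p = 0.0689, in place of 0.024 and 0.11. *Tnfrsf1a* under Trim AGU was 0.36 ± 0.078 (SE), adjusted p = 0.00965, under 1.5-fold, and 0.31, adjusted p = 0.0319, without Normoxia miR-125b replicate 1. *Tnfrsf1b* under Trim AGU had 1.28, 1.48 and 1.02 CPM against 0.480, 0.557 and 0.938 under miR-125b, a log2 difference of 0.93 (95% interval 0.19 to 1.66, adjusted p = 0.0663). It was called without Normoxia miR-125b replicate 3, the highest of its group (1.27, adjusted p = 0.0394), and not without replicate 1 (0.74, adjusted p = 0.184). The members' median log2 difference was 0.00078, -0.017, 0.16 and -0.0037 for Plus A and the isomiRs trimmed by 1, 2 and 3 bases.

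Removing the bases step by step was followed by comparing Trim AG with Trim A and Trim AGU with Trim AG. Of the 36 tests of members 0 were called, while 9.43% and 0.436% of all genes were called at the steps in hypoxia and 9.14% and 2.84% at those in normoxia. At an unadjusted p below 0.05 there were 3, 1, 4 and 2 members, and DESeq2 called 0. The value nearest to a call was *Tnfrsf12a* between Trim A and Trim AG in hypoxia, at 0.57 ± 0.095 (SE), adjusted p = 0.00694. It passed 1.5-fold without Trim A replicate 2 (0.61) or 3 (0.60) or Trim AG replicate 1 (0.59) or 2 (0.59). *Traf5* was 0.38 ± 0.077 at the same step and -0.32 ± 0.075 from Trim AG to Trim AGU in normoxia (adjusted p = 0.0161 and 0.0359), so it was highest under Trim AG in both oxygen levels. In normoxia *Tnfrsf1a* was -0.23 ± 0.052 from Trim A to Trim AG and 0.36 ± 0.060 from Trim AG to Trim AGU (adjusted p = 0.00827 and 0.0106), and *Fas* was -0.27 ± 0.057 (SE), adjusted p = 0.00505, at the first of these steps.

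Hypoxia was next compared with normoxia under each mimic. *Fas* and *Traf2* rose and *Tnfrsf1b* fell under Trim A, Trim AG and Trim AGU, and *Traf6* fell under Trim AG and Trim AGU. Under miR-125b only *Traf1* rose, and under Plus A only *Tnfrsf12a* fell. Of 45 tests 7 were called higher and 6 lower, at 1, 1, 3, 4 and 4 of 9 members from miR-125b and Plus A to the isomiRs trimmed by 1, 2 and 3 bases. That rise rests on the fold threshold, as 7, 4, 7, 4 and 4 members passed the adjusted p alone. In this order 20.9%, 22.8%, 26.5%, 32.8% and 27% of all genes were called. The members' median log2 fold change was -0.073, 0.041, -0.30, -0.057 and -0.14, beside 0.0037 to 0.020 over all genes. These comparisons share no libraries with each other. Under each mimic but Plus A, the r between deviation and gene length was lower in every hypoxia library than in normoxia. It was -0.11 to -0.035 against 0.044 to 0.16 under miR-125b, and -0.29 to 0.073 against 0.13 to 0.22 under Trim A. For Trim AG it was -0.26 to -0.031 against 0.070 to 0.15, and for Trim AGU -0.40 to -0.10 against 0.055 to 0.29. The longest members after *Traf3* are *Tnfrsf1b*, *Traf6* and *Fas*. The part of length in these changes was not tested.

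*Fas* was higher in every hypoxia library than in every normoxia library of the same mimic. With 45.3, 54.4 and 50.4 CPM in hypoxia and 23.6, 23.2 and 22.9 in normoxia, Trim AGU gave a log2 fold change of 1.16 ± 0.16 (SE), adjusted p = 0.00227. Trim A followed with 54.2, 62.4 and 60.0 and 28.9, 28.1 and 29.9 CPM (0.95 ± 0.083 (SE), adjusted p = 4.16e-05), and Trim AG with 40.0, 51.1 and 44.3 and 24.8, 24.0 and 26.1 CPM (0.86 ± 0.11 (SE), adjusted p = 0.000162). Plus A was at 0.58 (adjusted p = 0.000422) and miR-125b at 0.29 (0.0165), both under 1.5-fold. Without Hypoxia Trim AGU replicate 2, Trim AGU was at 1.02, adjusted p = 0.000120. Without replicate 1 in normoxia, Plus A and miR-125b became 0.47 and 0.39.

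*Traf2* in normoxia had 28.1, 29.0 and 29.2 CPM under miR-125b and 36.3, 31.1 and 33.3 under Trim AG, beside 27.9, 27.7 and 28.0 in Hypoxia MC. The log2 fold change of hypoxia over normoxia was 0.48, 0.50, 0.59, 0.59 and 0.64 from miR-125b and Plus A through Trim A and Trim AG to Trim AGU, with adjusted p of 6.98e-05, 0.000318, 0.000263, 0.000360 and 0.0389. The 3 Trim values lay just past 1.5-fold and the other 2 just short of it. Trim A lost the call without Hypoxia Trim A replicate 3 (0.55). Trim AG lost it with DESeq2 (0.58) and without Hypoxia Trim AG replicate 3 (0.57) or Normoxia Trim AG replicate 2 (0.53) or 3 (0.58). Trim AGU lost it without any of its 6 libraries but Hypoxia Trim AGU replicate 1. Without Hypoxia Trim AGU replicates 2 and 3 in turn it was 0.43, adjusted p = 0.0226, and 0.75, adjusted p = 0.0562, and without Normoxia Trim AGU replicates 1, 2 and 3 the adjusted p was 0.0964, 0.134 and 0.107. Without replicate 1 in normoxia the values were 0.46 for miR-125b and 0.50 for Plus A.

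*Tnfrsf1b* was lower in hypoxia, at 0.281, 0.220 and 0.206 CPM against 1.28, 1.48 and 1.02 under Trim AGU, a log2 fold change of -2.37 ± 0.38 (SE), adjusted p = 0.00437. Under Trim A it was 0.483, 0.475 and 0.261 against 0.917, 0.839 and 1.07 CPM (-1.29 ± 0.34 (SE), adjusted p = 0.0128) and under Trim AG 0.533, 0.376 and 0.469 against 0.764, 0.627 and 1.21 CPM (-0.91 ± 0.34 (SE), adjusted p = 0.0468). The libraries did not overlap in any of the 3. The Trim AG call was lost with DESeq2 (adjusted p = 0.0816) and without any of its 6 libraries but Normoxia Trim AG replicate 2 (adjusted p = 0.0535, 0.0995 and 0.103 without Hypoxia Trim AG replicates 1, 2 and 3, and 0.0781 and 0.235 without Normoxia Trim AG replicates 1 and 3). That of Trim A was lost without Normoxia Trim A replicate 3 (-1.20, adjusted p = 0.0553). For Plus A (-0.77, 95% interval -1.53 to -0.012) and miR-125b (-0.40, -1.23 to 0.43) it was not called, nor without replicate 1 in normoxia (-0.70 and -0.58). The Trim AGU value was -2.38, adjusted p = 0.00202, without Hypoxia Trim AGU replicate 2. *Traf6* was -0.98 ± 0.22 (SE), adjusted p = 0.0146, under Trim AGU and -0.61 ± 0.15 (SE), adjusted p = 0.00851, under Trim AG, with -0.53, -0.53 and -0.17 under miR-125b, Trim A and Plus A. The *Traf6* call under Trim AGU was lost without Normoxia Trim AGU replicate 2 (-0.92, adjusted p = 0.0618) or 3 (-1.02, adjusted p = 0.0591), and stood without Hypoxia Trim AGU replicate 2 (-0.85, adjusted p = 0.00511). That under Trim AG was lost without Hypoxia Trim AG replicate 3 (-0.55) or Normoxia Trim AG replicate 1 (-0.57) or 2 (-0.52).

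*Tnfrsf12a* had 127, 176 and 183 CPM in Hypoxia Plus A and 276, 308 and 291 in Normoxia Plus A (-0.96 ± 0.12 (SE), adjusted p = 0.000143, and -1.02, adjusted p = 0.000344, without Normoxia Plus A replicate 1). Under miR-125b and Trim A it was -0.55 and -0.43 (adjusted p = 3.62e-05 and 0.00298), with -0.51 for miR-125b without Normoxia miR-125b replicate 1, and under Trim AG -0.057 (95% interval -0.26 to 0.14). Under Trim AGU it was -0.14 (-0.69 to 0.40), where Normoxia Trim AGU replicate 2, at 177 CPM, stood below the other normoxia libraries, and -0.38, adjusted p = 0.136, without it. That library had an r of 0.29 between deviation and gene length, and *Tnfrsf12a* is the shortest member, at 963 bases. The part of this deviation in its level was not tested. *Traf1* under miR-125b had 3.47, 4.19 and 3.49 CPM in hypoxia and 2.26, 2.19 and 2.50 in normoxia (0.60 ± 0.16 (SE), adjusted p = 0.0126). That call was lost without Hypoxia miR-125b replicate 2 (0.51) and without Normoxia miR-125b replicate 1 (0.58) or 2 (0.56). *Traf5* was -0.45, -0.46 and -0.30 under miR-125b, Plus A and Trim A, past the adjusted p and under 1.5-fold. *Traf3* lay between -0.42 and 0.041 and passed in none.

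**Figure D3:**
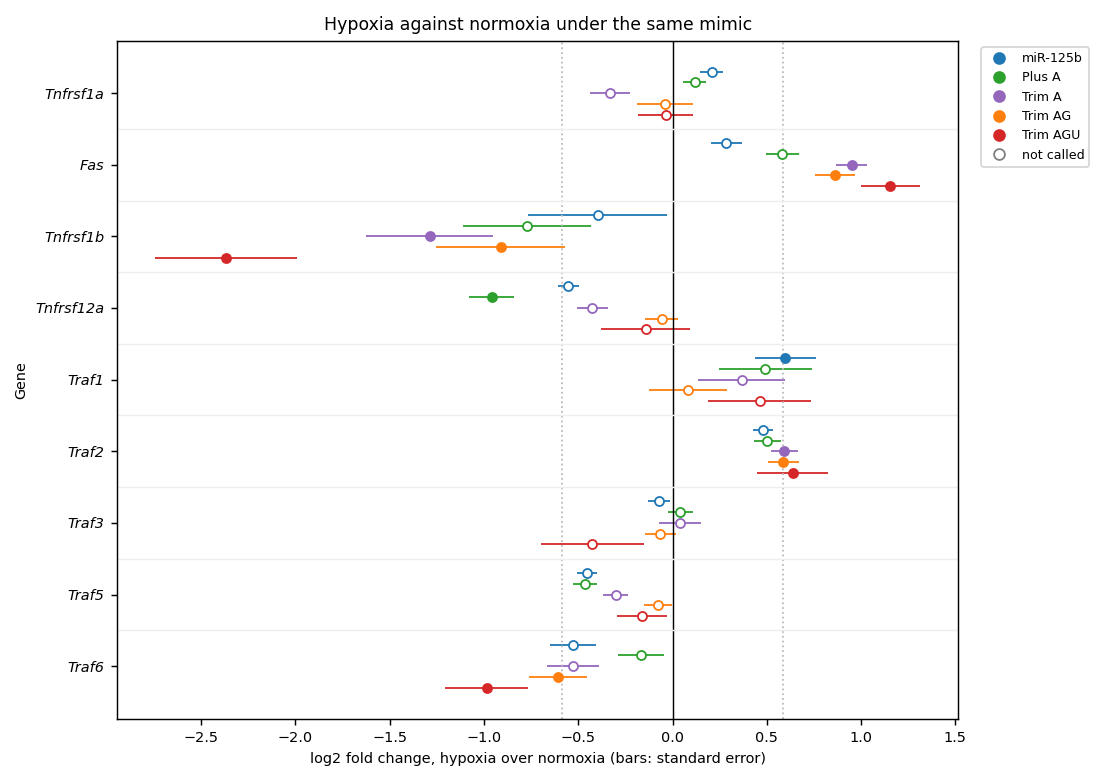
Log2 fold change of each tested gene in hypoxia against normoxia under each mimic, with bars of 1 SE from edgeR; filled points are called at an adjusted p below 0.05 and 1.5-fold, and dotted lines mark 1.5-fold. *Fas* goes from 0.29 under miR-125b to 1.16 under Trim AGU, and *Tnfrsf1b* from -0.40 to -2.37.

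Whether an isomiR differed from miR-125b by another amount in hypoxia than in normoxia was tested with an interaction term, called at an adjusted p below 0.05. *Fas* was called for Trim A, Trim AG and Trim AGU, and *Tnfrsf12a* and *Traf5* for Trim AG, 5 of 36 tests, and each of these 5 had the isomiR higher in hypoxia relative to normoxia. For *Fas* the interaction was 0.67 ± 0.12 (SE), adjusted p = 0.0348, for Trim A, 0.54 ± 0.14 (SE), adjusted p = 0.0175, for Trim AG, and 0.89 ± 0.18 (SE), adjusted p = 0.0445, for Trim AGU. Against miR-125b, *Fas* under these isomiRs was at -0.43, -0.70 and -0.76 in normoxia and at 0.22, -0.15 and 0.083 in hypoxia. Without Normoxia miR-125b replicate 1 they became 0.55, adjusted p = 0.0552, 0.44, adjusted p = 0.0382, and 0.75, adjusted p = 0.123, so only the Trim AG call stood. The Trim A call stood without Normoxia miR-125b replicate 3 or Hypoxia Trim A replicate 1 and was lost without any 1 of the other 10 libraries (adjusted p up to 0.128). The Trim AGU call stood without Hypoxia Trim AGU replicate 1 or 2 and was lost without any 1 of the other 10 (adjusted p up to 0.136). That of Trim AG was kept under each alternative. The deviation with gene length differed between oxygen levels under these isomiRs, as given above, and its part in the interactions was not tested.

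*Tnfrsf12a* had an interaction of 0.46 ± 0.10 (SE), adjusted p = 0.00728, for Trim AG (0.67 in hypoxia and 0.20 in normoxia, both against miR-125b), and *Traf5* of 0.34 ± 0.084 (SE), adjusted p = 0.0120 (0.51 and 0.16). Without Normoxia miR-125b replicate 1 they were 0.42, adjusted p = 0.0168, and 0.34, adjusted p = 0.0204. The 3 of 9 members called for Trim AG stand beside 22.7% of all genes, and the 1 each for Trim A and Trim AGU beside 0.811% and 0.966%. Plus A had 0 members called and 0.0385% of all genes, with 3 members at an unadjusted p below 0.05 and 0 called by DESeq2. With replicate 1 of both normoxia groups left out, the Plus A interaction of *Fas* was 0.092, adjusted p = 0.541, and of *Tnfrsf12a* -0.50, adjusted p = 0.138, in place of 0.29 and -0.41. *Tnfrsf1b* had the widest value, -1.96 ± 0.51 for Trim AGU, which did not pass (95% interval -3.06 to -0.86, adjusted p = 0.0862). DESeq2 called it (-1.99, adjusted p = 0.0385), and also called *Tnfrsf1a* for Trim A (-0.54, adjusted p = 0.00388), which edgeR had at -0.54, adjusted p = 0.0557. Both have the sign opposite to the 5 calls, with the isomiR lower in hypoxia relative to normoxia. *Tnfrsf1a* for Trim AG was -0.29 (adjusted p = 0.255) and passed without Hypoxia Trim AG replicate 1, the high library of that group (-0.49, adjusted p = 0.00265).

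**Figure D4:**
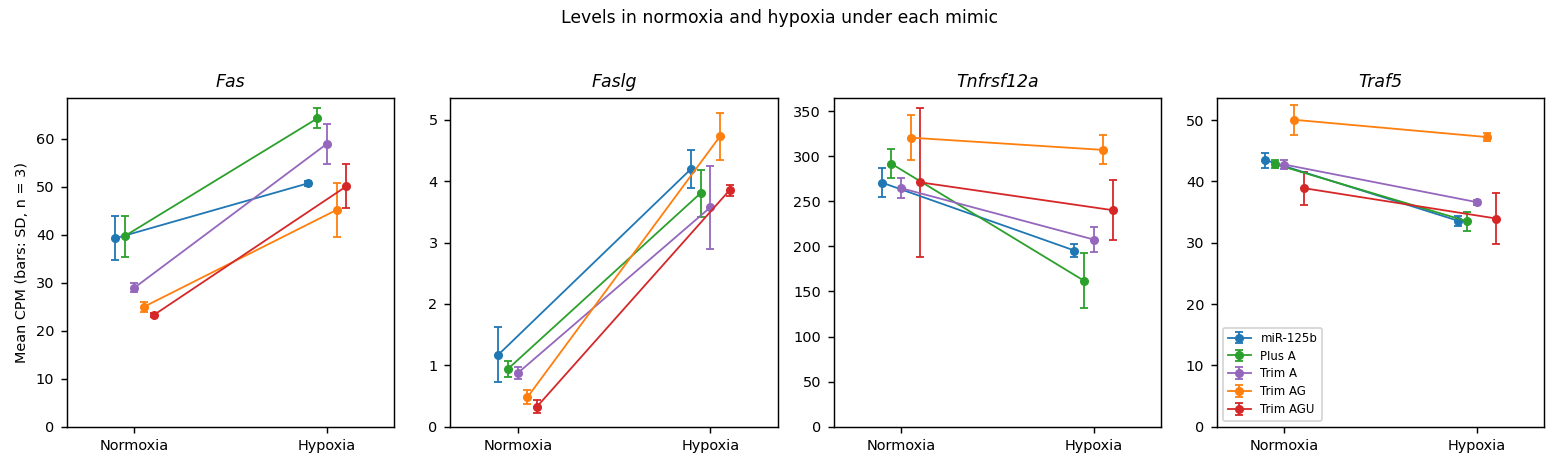
Mean level in CPM (bars are the SD of 3 libraries) in normoxia and hypoxia under each mimic, for *Fas*, *Tnfrsf12a* and *Traf5*, which had a called interaction, and for *Faslg*, the ligand gene of Fas. Lines join the groups of a mimic. For *Fas* the means part from 50.7 and 39.2 CPM under miR-125b to 50.0 and 23.2 CPM under Trim AGU.

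Normoxia MC was given only in a table of the authors' group means, beside Normoxia Plus A, on a normalized signal scale with no library values, so these are listed without error or test. *Tnfrsf1b* had 18.2 in Normoxia Plus A and 64.5 in Normoxia MC, and *Tnfrsf1a* 2179 in Normoxia Plus A and 3500.0 in Normoxia MC. *Fas* had 1181 in Normoxia Plus A and 749 in Normoxia MC. For *Traf2* the means were 863 in Normoxia Plus A and 754 in Normoxia MC, for *Traf6* 200.1 in Normoxia Plus A and 291 in Normoxia MC, and for *Traf1* 62.0 in Normoxia Plus A and 73.9 in Normoxia MC. *Tnfrsf12a*, *Traf3* and *Traf5* had 8664 in Normoxia Plus A and 7874 in Normoxia MC, 1695 in Normoxia Plus A and 1351 in Normoxia MC, and 1272 in Normoxia Plus A and 1259 in Normoxia MC. *Tnfrsf10b* had 0.665 in Normoxia Plus A and was listed at 0 in Normoxia MC.

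The genes around the members were taken from lists by role. Their counts stand beside the shares of all genes tested, which against MC in hypoxia were 9.43% to 17% higher and 12.4% to 20.2% lower, and in hypoxia against normoxia 20.9% to 32.8% in either direction. Of 13 TNF family ligands 8 were listed and 3 to 5 passed the filter on low counts per comparison. *Faslg*, the ligand of Fas, rose under all 5 mimics against MC in hypoxia. It had 1.85, 1.65 and 0.961 CPM in MC and 4.91, 4.98 and 4.29 CPM under Trim AG, with log2 fold changes of 1.31 (Trim A) to 1.73 (Trim AG). In hypoxia against normoxia it rose under all 5 mimics as well, from 1.75 under miR-125b to 3.58 under Trim AGU, where normoxia had 0.208, 0.379 and 0.396 CPM. Like *Fas*, it fell in normoxia against miR-125b under Trim AG (-1.33 ± 0.37, adjusted p = 0.0180) and Trim AGU (-1.83 ± 0.41, 0.0110), and its interaction was 1.51 (adjusted p = 0.0110) for Trim AG. *Tnfsf12*, which encodes TWEAK, fell under Trim AG and Trim AGU against MC, with 22.5, 18.4 and 22 CPM in MC against 10.2, 8.34 and 9.0 under Trim AG and 7.88, 9.92 and 6.78 under Trim AGU (-1.13 and -1.20). It also fell against miR-125b under both, with -1.06 and -1.13 in hypoxia and -0.70 and -1.08 in normoxia on the log2 scale, and *Tnfrsf12a* was called in only the first of these 4 comparisons. *Tnfsf13*, encoding APRIL, was called in 2 of the 22 comparisons. *Tnf* itself did not match a gene of the tables.

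All 13 other TNF receptors on the list were listed and 6 to 8 were tested per comparison. Against MC in hypoxia 2 to 4 of the 6 tested fell and 1 rose, *Tnfrsf25* (a death receptor) under Plus A, beside 12.4% to 20.2% of all genes lower, with list medians of -0.90 to -0.61 on the log2 scale beside -0.016 to 0.0033 over all genes. *Tnfrsf11b*, encoding the decoy receptor osteoprotegerin, fell under all 5 (-1.63 to -0.91) and was lower in hypoxia than in normoxia under all 5 (-1.45 to -0.66). *Tnfrsf9*, encoding the costimulatory receptor 4-1BB, went from 4.79, 3.90 and 4.02 CPM in MC to 0.484, 0.726 and 0.398 under Trim AG (-2.91, adjusted p = 2.56e-05) and fell under the other 4 mimics too. *Eda2r* fell under all but Trim AGU, where -1.22 had an adjusted p of 0.175. *Tnfrsf25* fell under Trim AG against MC (-0.89) and against miR-125b in hypoxia (-1.43). Against miR-125b it also fell under Trim AGU in hypoxia (-1.20), and under Trim AG (-0.91) and Trim AGU (-1.07) in normoxia.

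All 12 genes of the death complex were tested. Against MC in hypoxia 1 or 2 of 12 fell and at most 1 rose per mimic, with list medians of -0.17 to 0.020. *Casp8*, which the death receptors activate, fell under Trim AG alone (10.1, 10.5 and 10.6 CPM in MC, 4.36, 4.43 and 4.73 under Trim AG, -1.14 ± 0.12, adjusted p = 6.11e-05), and fell under it in normoxia against miR-125b (-0.80). *Tradd*, the adaptor of TNFR1, rose under miR-125b (0.71) and Trim AGU (0.62) against MC and fell under Trim AG against miR-125b (-1.01 in hypoxia, -0.84 in normoxia). *Cflar*, encoding the caspase-8 inhibitor c-FLIP, rose under Trim AG against miR-125b in hypoxia (0.61) and under Trim AGU in normoxia (0.67). In hypoxia against normoxia *Fadd*, named here after its values were seen, was called lower under all 5 mimics, and *Cflar* under miR-125b, Trim A and Trim AGU.

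Of 23 TRAF partners and NF-kB activators 22 were tested. Against MC in hypoxia the number that rose and fell was 0 higher and 3 lower under miR-125b, 1 higher and 2 lower under Plus A, 2 higher and 4 lower under Trim A, 6 higher and 4 lower under Trim AG, 2 higher and 3 lower under Trim AGU, with list medians of 0.063 to 0.19. *Ikbkg*, encoding the regulatory subunit NEMO of the kinase that activates NF-kB, fell under all 5, from 23.8, 22.8 and 23.7 CPM in MC to 9.90, 8.45 and 9.14 under miR-125b (-1.32, adjusted p = 1.04e-07). *Irak1*, the kinase upstream of Traf6, fell under Trim AG (-1.38) and Trim AGU (-0.76), and under Trim AG against miR-125b in both oxygen levels (-1.22 and -0.88). It also fell under Trim AGU against miR-125b in hypoxia. *Sqstm1*, encoding p62, which binds Traf6 and serves autophagy, rose in hypoxia against normoxia under all 5 (1.18 to 2.26). *Traip*, a TRAF-interacting ubiquitin ligase that also acts in DNA replication, was called in 14 of 22 comparisons. It rose under Trim A, Trim AG and Trim AGU against MC (1.07, 2.03 and 1.95) and fell in hypoxia under all 5 mimics (-1.64 to -0.91).

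The 11 regulators listed as brakes were all tested, though the list is not made of negative regulators alone. Per mimic against MC, 0 or 1 of 11 were lower and 0 higher, beside 12.4% to 20.2% and 9.43% to 17% of all genes. *Tnfaip3*, encoding the deubiquitinase A20, fell under Trim AGU against MC (-1.34) and rose under Trim AG against miR-125b in normoxia (1.01). *Tnip1*, a partner of A20, fell under Trim AG (-0.93), *Otud7b* under Trim A (-0.60) and *Bcl10* under Plus A (-1.0), of which *Bcl10* is an activating adaptor of NF-kB and not a brake. Of 12 NF-kB subunits and targets 2 rose per mimic against MC, *Nfkb2* (named after its values were seen) and *Relb*, which form the non-canonical dimer, with *Relb* at 0.65 (Plus A) to 1.05 (Trim A). *Relb* also rose in hypoxia against normoxia under all 5 (1.49 to 2.27). *Vcam1*, an adhesion molecule induced by TNF, fell under all 5 against MC (-1.72 to -0.70), and *Cxcl1*, a chemokine, under all but Trim AGU (-0.67, adjusted p = 0.0890). *Il6* rose under Trim AG against miR-125b in hypoxia (0.77) and under hypoxia as against normoxia for all mimics but Plus A (0.65 to 1.89). The list medians against MC were -0.24 to 0.086 and -0.096 to 0.046.

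For each member, the protein coding genes whose group means followed it most closely over the 11 groups were found by Pearson's r on the scale log2(CPM + 1). The 11 means share mimics, oxygen and MC, so r is a description. For the death receptors these were *Snapin* (r = 0.984) and *Mdm2* (r = 0.979) for *Fas* and *Bbs9* (r = 0.975) and *Ebf4* (r = 0.958) for *Tnfrsf1a*. *Tnfrsf1b* was followed by *Adam9* (r = 0.975) and *Gnptab* (r = 0.972), and *Tnfrsf12a* by *Gpatch11* (r = 0.980) and *Gch1* (r = 0.972). Among the adaptors they were *Dpf2* (r = 0.982) and *Maea* (r = 0.979) for *Traf2*, *Xrn2* (r = 0.981) and *Ttc37* (r = 0.976) for *Traf6*, *Zbtb41* (r = 0.970) and *Clec16a* (r = 0.963) for *Traf3*, *RGD1309534* (r = 0.962) and *Pcolce* (r = 0.961) for *Traf1* and *Edn1* (r = 0.928) and *Grhpr* (r = 0.912) for *Traf5*. Within the set, *Tnfrsf1b* and *Traf6* were the most alike (r = 0.912), and *Traf2* ran against both (r = -0.806 with *Traf6* and -0.775 with *Tnfrsf1b*). *Tnfrsf12a* and *Traf1* had r = -0.797.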

How the data were processed

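RNA of 36 samples in 12 groups was sequenced on poly-A selected libraries, and 33 libraries in 11 groups entered the tests. Raw counts per gene and FPKM were deposited by the authors in tables of group comparisons. HISAT2 and StringTie are named in the submitters' processing notes, without versions, and the genome build is not given in the sources used here. The deposited tables were joined by gene identifier into 24275 genes. A library present in several tables had the same counts in each, and a gene absent from a table was given 0 (elsewhere its count did not exceed 1). For Normoxia MC only a column of the authors' group means, on a normalized signal scale, was used, and its counts per library were not analysed here. The authors' columns of fold changes and p-values were not used.

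Counts were tested with edgeR 4.0.16 (R 4.3.3) by the quasi-likelihood F test, with TMM scaling and its default filter on low counts, on the 6 libraries of each of 22 pairwise comparisons and the 12 of each of 4 interactions. P-values were Benjamini-Hochberg adjusted over all genes tested. The SE is the log2 fold change divided by the square root of F, and 95% intervals use the t distribution with edgeR's degrees of freedom. CPM is the count scaled to the library total. FPKM was used to compare levels between genes only. Limits on a count of 0 cover counting error only, while SEs and intervals of fold changes include the spread between libraries. Replicates differed beyond sampling noise (chi-square per gene of 4.97 to 236), and none was counted as a duplicate. Scripts were tested on simulated data. Alternatives were DESeq2 1.42.0, its size factors in edgeR, 1 fit to all 33 libraries, a replicate block, testing with low counts kept, thresholds of 2-fold and of no fold, each library left out, and replicate 1 of Normoxia Plus A and Normoxia miR-125b left out together. For levels they were TMM-scaled CPM and FPKM.

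The members and lists were chosen with earlier results of these data known. All 10 members are named. From each list the text names up to 4 genes called in the most of the 22 comparisons, at 1 CPM or more on average, and for each member tested the 2 protein coding genes of nearest pattern. A gene that this rule names is not reported here. Listed genes *Tnf*, *Ltb*, *Tnfsf11*, *Tnfsf14*, *Cd40lg* and *Ube2v1*, and the endothelial markers *Pecam1*, *Cdh5* and *Kdr*, had no match. Transcript sequences were not used here, so seed matches were not counted.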

Additional observations from a re-analysis of the deposited data

Results flagged for a closer look

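The difference between an isomiR and miR-125b was not the same in hypoxia and normoxia for 5 results, by edgeR's test of the interaction term. For *Fas* the interaction was 0.67 on the log2 scale for Trim A (adjusted p = 0.0348), 0.54 for Trim AG (adjusted p = 0.0175) and 0.89 for Trim AGU (adjusted p = 0.0445). For Trim AG it was 0.46 for *Tnfrsf12a* (adjusted p = 0.00728) and 0.34 for *Traf5* (adjusted p = 0.0120). Among all genes tested, 22.7% had a called interaction for Trim AG, 0.811% for Trim A and 0.966% for Trim AGU. The 3 Trim AG results passed under every alternative tried, while those of *Fas* for Trim A and Trim AGU were lost under 11 and 12 of 16 alternatives. Groups of 3 libraries are too small for a test of single outlying libraries.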

How the results depend on the processing

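No called member result changed direction under an alternative, while 48 results that were not called had the opposite sign under at least 1, such as *Traf3* under Trim AGU against MC (-0.15, and 0.12 without Hypoxia Trim AGU replicate 2). Of 43 called member results 27 kept their call under every alternative and 16 lost it under at least 1. Against MC in hypoxia 21 results were called, 5 at 2-fold, 37 with no fold threshold, and 17 to 22 with 1 library left out. For the isomiRs against miR-125b 2 were called in hypoxia (0 at 2-fold, 6 with no fold threshold, 4 with all libraries in 1 fit, 1 to 3 with 1 library left out) and 2 in normoxia (0, 5, 4 and 2 to 3 in this order). For further trimming 0 became 8 with no fold threshold, 1 with all libraries in 1 fit and 0 to 1 with 1 library left out. For hypoxia against normoxia 13 became 3 at 2-fold, 26 with no fold threshold and 10 to 14 with 1 library left out. The interaction count of 5 was 3 with the replicate block and 3 to 6 with 1 library left out. The block removed 6 calls. These were the *Fas* interactions of Trim A (adjusted p = 0.0854) and Trim AGU (adjusted p = 0.105), *Traf1* under Trim AGU against MC (adjusted p = 0.0577) and, in hypoxia against normoxia, *Tnfrsf1b* under Trim AG (adjusted p = 0.0669) and *Traf2* and *Traf6* under Trim AGU (adjusted p = 0.108 and 0.0518). Replicates share a number but no stated culture, and the correlation of their deviations between same-numbered libraries ran from -0.345 to 0.545, with every pair above 0.1 in 1 of 22 comparisons (Trim AGU against Trim AG in normoxia), so the numbers were not taken as pairs. All 9 tested members kept their highest and lowest group with TMM-scaled CPM and with FPKM. *Tnfrsf1b*, at 7 to 54 counts per library, had the widest intervals, and *Tnfrsf10b* was too low to test.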
